A study of Mus musculus with 13 samples.

Results

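The genes described here are 9 that RAS-ERK signalling is known to induce: the ETS transcription factors Etv1, Etv4 and Etv5, the AP-1 subunit Fosl1, the pleckstrin homology-like protein Phlda1, the receptor tyrosine kinases Epha2 and Epha4, the stress-response gene Ier3 and the adaptor Shc4. They were taken by symbol from a table of 22997 genes, and all 9 were found. Bulk RNA sequencing had profiled 13 libraries, each from 50000 bone marrow cells sorted as CD138+ B220- CD45.2+ from C57/BL6 mice, a gate that takes plasma cells. The 3 WT libraries were from wild-type animals. The 3 V libraries had Vκ*MYC, a MYC transgene under kappa light chain regulatory elements, and IgG1-Cre, a recombinase expressed from the IgG1 locus in B cells that switch to that isotype. The 5 VQ libraries carried both of these and the allele Nras LSL Q61R/+, in which Cre removes a stop cassette so that the mutant protein is made from 1 of the gene's alleles. The VQ cells came from transplant recipients of 3 donor lines, D1 (2 recipients), D4 (1) and D5 (2). The 2 tVk12653 libraries were from recipients of 1 transplantable Vκ*MYC tumour line, without the Nras allele in its label. Since only the VQ and tVk12653 cells had been transplanted, an effect of genotype cannot be told apart from one of transplantation when either is set against WT or V.

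Growth factor receptors switch on RAS, which passes the signal through RAF and MEK to the kinase ERK. ERK phosphorylates transcription factors, and the genes they switch on include short-lived immediate early genes, feedback inhibitors such as the Sprouty and dual-specificity phosphatase families, and slower target genes such as Etv4 and Etv5. Etv1, Etv4 and Etv5 form the PEA3 group of ETS factors, whose genes are held down by the repressor Capicua (Cic) until ERK inactivates it. RAS mutations are common in multiple myeloma, the cancer of plasma cells, and the VQ cells carry mutant Nras together with MYC. No comparison here differs in Nras alone: WT lacks the transgene, V was not transplanted, and Myc RNA differed between the arms (levels below).

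The genes lie on 9 different autosomes (GRCm38.p6, RefSeq): Etv1 at chromosome 12, 38780082 to 38870483, Etv4 at chromosome 11, 101769747 to 101785310, and Etv5 at chromosome 16, 22381313 to 22439570. Fosl1 lies at chromosome 19, 5447698 to 5455938, Phlda1 at chromosome 10, 111506286 to 111508649, and Epha2 at chromosome 4, 141301221 to 141329384. Epha4 lies at chromosome 1, 77367182 to 77515107, Ier3 at chromosome 17, 35821713 to 35822911, and Shc4 at chromosome 2, 125627439 to 125724148. RefSeq promoter sequence was at hand for 6 of the 9. The 250 bases before the start of Etv1, Etv5 and Epha2 are shown, 5′ to 3′ on the strand of the gene. They were chosen because Etv5 was higher than in WT in every VQ line, and Etv1 and Epha2 in D4 and D5 (values below).
Etv1 promoter (chr12:38779832-38780081, plus strand): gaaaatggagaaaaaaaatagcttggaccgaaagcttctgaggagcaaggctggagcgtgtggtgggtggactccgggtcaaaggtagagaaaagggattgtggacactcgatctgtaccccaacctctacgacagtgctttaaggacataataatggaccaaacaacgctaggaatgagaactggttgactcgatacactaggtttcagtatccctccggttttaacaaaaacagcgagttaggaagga
Etv5 promoter (chr16:22439571-22439820, minus strand): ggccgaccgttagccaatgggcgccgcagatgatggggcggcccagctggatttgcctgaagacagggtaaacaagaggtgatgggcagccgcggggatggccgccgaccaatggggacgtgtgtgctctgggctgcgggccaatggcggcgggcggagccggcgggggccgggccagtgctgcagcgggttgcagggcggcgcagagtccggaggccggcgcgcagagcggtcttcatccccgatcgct
Epha2 promoter (chr4:141300971-141301220, plus strand): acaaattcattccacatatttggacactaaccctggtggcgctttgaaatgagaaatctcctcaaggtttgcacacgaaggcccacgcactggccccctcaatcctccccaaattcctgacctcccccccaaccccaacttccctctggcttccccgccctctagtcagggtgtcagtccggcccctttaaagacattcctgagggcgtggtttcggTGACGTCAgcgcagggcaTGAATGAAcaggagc
Capitals mark matches on either strand to a short list of motifs: the ETS core CGGAAG, AP-1 TGANTCA, the cyclic AMP response element TGACGTCA, the E-box CACGTG, and the Capicua octamers TGAATGAA, TGAATGGA, TCAATGAA and TCAATGGA. Epha2 held a TGACGTCA that begins 33 bases before the start and a TGAATGAA that begins 15 bases before it, and the matches do not overlap. The Etv1 and Etv5 windows held none of these letters. Among the windows not shown, that of Shc4, a gene too low for the fit of arms, held matches as well. These were an AP-1 match that begins 131 bases before the start and a Capicua octamer that begins 25 bases before it. The Epha4 and Ier3 windows held none. Of 32851 RefSeq windows of the same length, 1.55% held TGACGTCA and 3.19% a Capicua octamer. G and C made up 46.4% of the Etv1 window, 71.2% of the Etv5 window and 55.6% of the Epha2 window, against a median of 52.4% over all windows. A match describes letters and not a bound site.

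Total counts per library were 2096815 to 8512281. Levels are CPM, counts scaled by trimmed means of M values (TMM) to a common library size, and a count of 0 allows up to 3 counts, which is 0.326 to 1.48 CPM depending on the library (counting error only). Sdc1, which encodes CD138, stood at 365 to 1427 CPM in all 13 libraries. Jchain, an antibody subunit that plasma cells make in bulk, lay at 33543 to 64456 CPM in WT and V but at 44.5 to 1509 CPM in VQ and 3995 to 6740 CPM in tVk12653. Ptprc, which encodes CD45, was at 1.69 CPM in D4 and 1.85 to 6.65 CPM in D5, although the sort used CD45.2. Nras RNA was highest in D5 (132 and 163 CPM), against 36.1 to 36.6 CPM in WT and 59.3 in D4. D1 had 45.5 and 41.7 CPM of it, and tVk12653, without the allele in its label, 54.1 and 46.7 CPM. Myc RNA stood at 35.0 to 72.2 CPM in WT, 307 to 430 CPM in V, 687 to 1665 CPM in VQ and 8000 to 8200 CPM in tVk12653. RNA of other cells differed between the arms as well: the summed level of 13 neutrophil markers was 1875 to 9622 CPM in WT and V, 91.9 to 1278 CPM in VQ and 101 to 163 CPM in tVk12653, and none of the 13 was at 0 throughout a group. Summed T and NK cell markers (12 genes) were at 41.9 to 104 CPM in WT and V and 2.53 to 6.73 CPM in VQ. The 11 stromal and endothelial markers summed to 67.6 to 144 CPM in WT and V and 61.8 to 443 CPM in VQ, highest in D1. The 12 monocyte and macrophage markers summed to 548 to 1871 CPM in WT and V, 672 to 770 CPM in D1, 1636 CPM in D4 and 23.3 to 47.5 CPM in D5. The 11 erythroid markers summed to 221 to 1120 CPM in WT, 49.3 to 74.3 CPM in V, at most 173 CPM in D1, 87.6 CPM in D4 and 211 to 246 CPM in D5. Etv1, Etv4, Etv5 and Epha2 were highest in VQ libraries, and the marker sums of these libraries were thus lower for some cell types and higher for others. Whether the remaining marker RNA has a part in any result was not tested. In bulk samples, more cells that make an RNA and more RNA per cell cannot be told apart.

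Etv5 was the ETS factor of the group with the highest level in the WT libraries, though which cells in them made its RNA was not tested. The WT libraries had 11.3, 11.1 and 8.53 CPM, those of V 9.37, 12.8 and 11.4 CPM, and those of tVk12653 6.70 and 10.1 CPM. These 8 libraries formed 1 narrow range. Among VQ libraries D1 had 64.3 and 33.0 CPM, D4 had 73.9, and D5 had 221 and 179, so that every VQ library lay above every other library. Against WT the log2 fold change was 3.42 ± 0.54 (standard error, edgeR adjusted p = 0.00173), and against V it was 3.29 ± 0.54 (edgeR adjusted p = 0.00280). Against tVk12653 it was 3.72 ± 0.65 (edgeR adjusted p = 0.00960). The tVk12653 libraries are from recipients of 1 line and were taken as replicates. Here and below, p-values of comparisons with tVk12653 thus apply to that line only. In order of level, D5 came first, then D4 and D1, then the other groups, whose libraries overlapped. D4 is a single library, so its place between D5 and D1 has no replicate check.

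Etv4, the founding member of the PEA3 group, was near absent outside VQ. WT libraries had 0, 0 and 2 counts of it, V libraries 1, 0 and 1, and tVk12653 libraries 1 and 2, at most 0.724 CPM. D1 had 15.3 and 6.84 CPM, D4 13.8 CPM, and D5 35.0 and 43.7 CPM. Again every VQ library lay above every other one. The summed VQ counts were 85.2 times those of WT after scaling (95% interval 23.5 to 706, exact binomial, counting error only), 74.4 times those of V (20.5 to 616) and 44.4 times those of tVk12653 (15.1 to 216). The edgeR adjusted p-values were 0.00205, 0.00317 and 0.0184. Without either tVk12653 library the calls of Etv4 and Etv5 against that line were lost (edgeR adjusted p of 0.179 and 0.109 without replicate 1, 0.127 and 0.0894 without replicate 2). They were also lost in a fit of VQ and tVk12653 alone (edgeR adjusted p of 0.165 for Etv4 and 0.187 for Etv5), although the log2 fold changes there were 5.53 and 3.68.

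Etv1 was switched on in some VQ lines and not in others. It had 0 counts in both D1 libraries, stood at 6.32 CPM in D4, and at 57.8 and 52.9 CPM in D5. WT held a little of it (1.06, 2.21 and 0.284 CPM), V held 1 count in 3 libraries, and tVk12653 held 2 counts in 2 libraries. D4 and D5 thus lay above WT. The 0 counts of D1 allow up to 0.807 and 0.326 CPM, so D1 cannot be placed below WT replicate 3. Summed VQ counts were 134 times those of V (95% interval 24.0 to 5314, exact binomial, counting error only). The edgeR adjusted p against V was 0.0487, and that against WT was 0.0983. The call against V was lost in 10 of the 16 alternatives in which the gene was tested. Among them were the removal of any 1 V library (edgeR adjusted p of 0.119 to 0.149) and the fit of 13 libraries with a mean per group. The latter gave 0.9998 without and 0.998 with a replicate block, with standard errors of 348 and 163 log2 units. With D1 at 0 counts, these 2 fits cannot decide whether VQ and V differ. Against WT a call appeared when D1 was left out (edgeR adjusted p = 0.0108). In D4 or D5 alone the counts were 50.1 (8.54 to 2021) and 438 times (78.2 to 17338) those of V, with the same kind of interval.

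**Figure D1:**
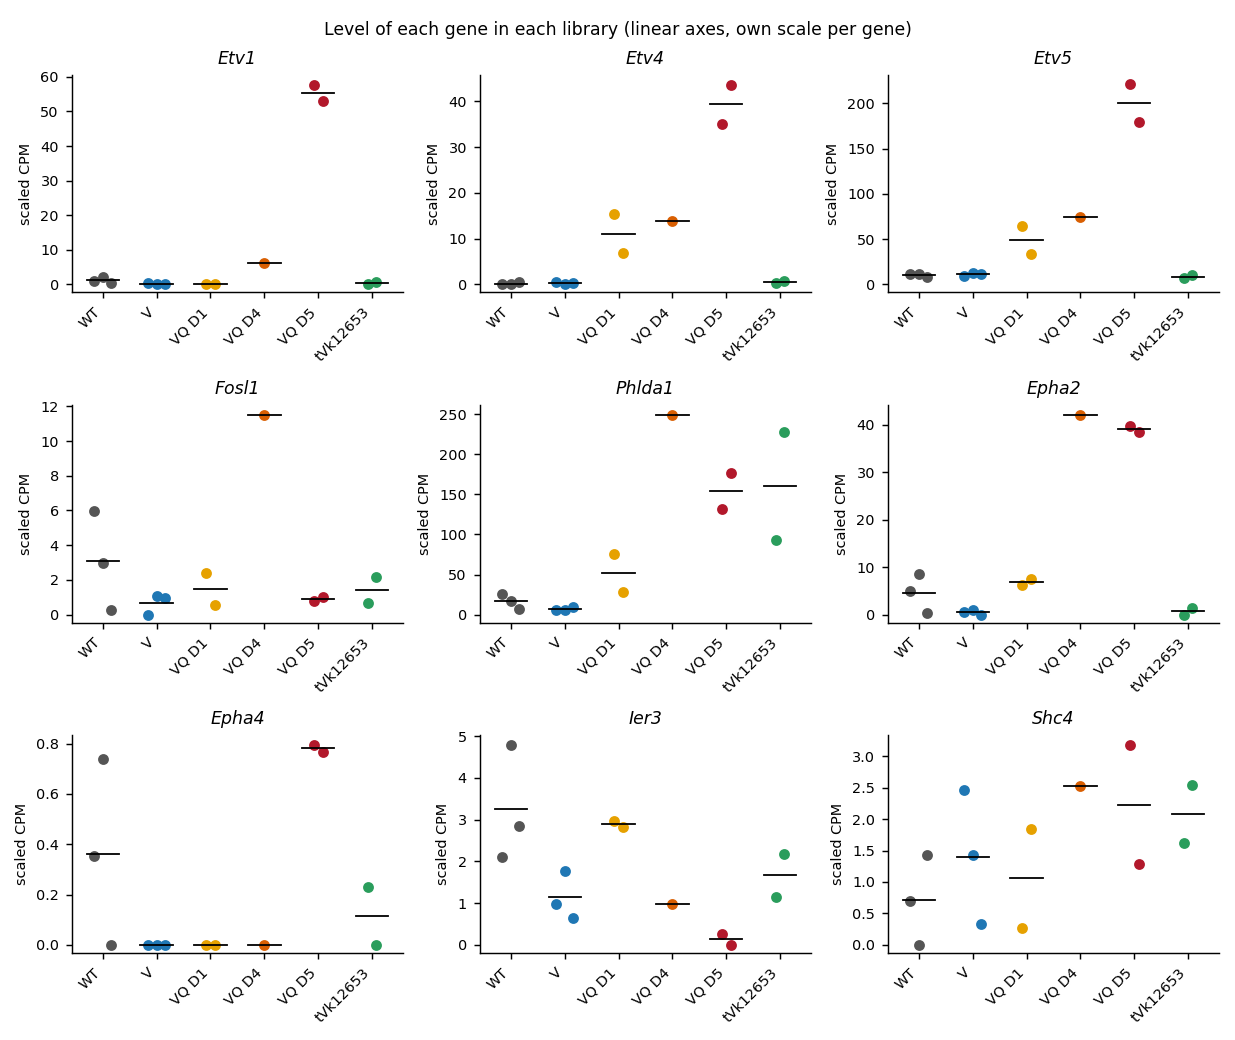
Level of each of the 9 genes in each of the 13 libraries in CPM scaled by TMM (points) with the group mean (line), on linear axes that differ between panels. Etv4 and Etv5 are above every other library in all 5 VQ libraries, Etv1 is at 0 in both D1 libraries, and Phlda1 is high in tVk12653 as well.

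Levels can be compared between genes only per length, here as CPM per kilobase of exon from GENCODE vM21 (exon lengths of 13.3 kb for Etv1, 3.10 kb for Etv4 and 4.10 kb for Etv5). The 3 ETS factors together summed to 1.71 to 3.12 CPM per kb in the 8 libraries outside VQ, and Etv5 made up at least 89.6% of that sum. D1 reached sums of 20.6 and 10.3 CPM per kb, D4 22.9, and D5 69.5 and 61.7. Etv5 still held most of it in every VQ library (70.7 to 78.6%). Etv4 held 16.2 to 24.0% in VQ and at most 8.46% elsewhere. Etv1 reached 6.25 and 6.45% in D5 although its CPM there was above that of Etv4, since its annotated exons are longer. Shorter transcripts of Etv1 would raise its share, and gene counts do not tell transcripts apart.

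**Figure D2:**
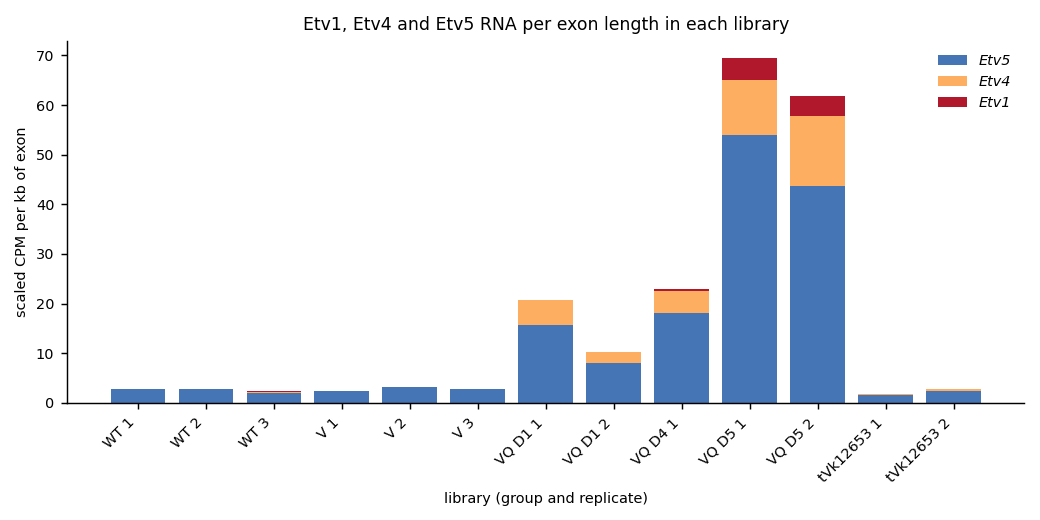
Summed level of Etv5, Etv4 and Etv1 in each library, as bars in scaled CPM per kilobase of exon. The bars outside VQ reach at most 3.12 and are nearly all Etv5, while D5 reaches 69.5 and 61.7 with all 3 genes present.

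Phlda1, a protein induced by many growth signals, was high in all transplanted tumours, with or without the Nras allele. WT had 26.1, 17.0 and 7.39 CPM and V had 5.92, 5.69 and 9.41 CPM. D1 had 75.4 and 28.2 CPM, D4 had 249.6, and D5 had 132 and 176. The tVk12653 libraries had 93.6 and 228 CPM, within the VQ range. Every tumour library lay above every WT and V library, though D1 replicate 2 was close to WT replicate 1. Phlda1 rose in VQ against WT (log2 fold change 3.19 ± 0.68, edgeR adjusted p = 0.00678) and against V (4.42 ± 0.73, edgeR adjusted p = 0.00296). It rose in tVk12653 against WT (3.26 ± 0.71, edgeR adjusted p = 0.00972) and against V (4.49 ± 0.76, edgeR adjusted p = 0.00414). The call of tVk12653 against WT was lost without tVk12653 replicate 2 (edgeR adjusted p = 0.0883). VQ and tVk12653 differed by -0.07 ± 0.68 (edgeR adjusted p = 0.954), a standard error that leaves room for a difference in either direction. Comparisons against the same arm share its libraries and are not independent. Exons of Phlda1 overlap those of the long noncoding RNA Gm28592 on the other strand, so some of its counts could belong there. On the per-length scale Phlda1 was the most abundant of the 9 genes in every group, from 3.18 CPM per kb in V to 113 in D4.

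Epha2, a receptor tyrosine kinase of the Eph family that binds ephrin-A ligands on neighbouring cells, followed the ETS factors in part. WT had 4.93, 8.48 and 0.284 CPM and V had 0.493, 1.07 and 0 CPM. D1 had 6.19 and 7.50 CPM, D4 42.1 CPM, and D5 39.7 and 38.6 CPM. tVk12653 had 0 and 1.45 CPM. D4 and D5 lay far above all other libraries, while D1 lay inside the WT range. Epha2 rose in VQ against V (log2 fold change 5.82 ± 1.39, edgeR adjusted p = 0.0142). This call was lost without V replicate 1 (edgeR adjusted p = 0.0542) or V replicate 3 (0.0594). Against WT (2.75 ± 1.08, edgeR adjusted p = 0.0773) and tVk12653 (5.56 ± 1.59, edgeR adjusted p = 0.0541) it missed the threshold. Without the D1 line it passed in both (edgeR adjusted p = 0.0326 and 0.0211). It also passed in both when the 13 libraries were fitted with a mean per group in place of the summed lines, without a replicate block (0.00895 and 0.00259) or with one (0.00179 and 1.44e-05). These fits take recipients of 1 line as replicates, so their p-values leave out the spread between VQ lines.

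Epha4, a second Eph receptor, had 10 counts in all 13 libraries together. These were 3 and 3 in D5, 1, 2 and 0 in WT, and 1 and 0 in tVk12653, with none in V, D1 or D4. At this depth no difference was detectable, and the gene was too low to be tested. Among 12 other Eph receptors, 5 passed the filter on low counts for the arms. In VQ against WT 3 of the 5 rose and 0 fell, where 17.3% of all genes were called higher and 15.1% lower. The median log2 fold change of the 5 was 3.51, against 0.08 over all genes tested. A receptor that is high in 1 arm passes the filter because of it. These counts thus describe the genes and are not a test of the set. Epha7 was at 41.2 and 161 CPM at the extremes of D1, 50.8 in D4 and 114 to 153 CPM in tVk12653, but at most 0.530 CPM in D5 and at most 1.97 CPM in WT and V. D1 was thus above D5 in Epha7 and below it in Epha2. Epha8 (37.8 to 54.9 CPM in D1, 4.09 to 4.77 in D5) and Ephb4 (11.7 to 12.6 in D1, at most 0.767 in D5) had the same order as Epha7. In tVk12653 against WT the same 3 receptors rose and 0 fell, where 12.6% of all genes were called higher and 15.7% lower. Of 8 ephrin ligands, 2 could be tested across arms, and Efna4, a ligand of the A class, rose in VQ against WT (4.66 on the log2 scale, edgeR adjusted p = 0.0198) from at most 0.284 CPM to 1.79 to 4.35 CPM. In WT 0.284 CPM is 1 count, so this fold change depends on the prior count of the fit. V reached 1.30 CPM. In VQ against V and against tVk12653, 0 of the 2 ligands were called.

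Fosl1, which encodes the AP-1 subunit FRA-1, was high in 1 library. D4 had 11.5 CPM, while D1 had 2.42 and 0.543 CPM and D5 0.795 and 1.02 CPM. WT had 5.99, 2.95 and 0.284 CPM, V 0, 1.07 and 0.974 CPM, and tVk12653 0.693 and 2.17 CPM. Apart from D4 all groups overlapped WT, and 0 of the 6 arm comparisons were called. Exons of Fosl1 overlap those of Ccdc85b on the other strand, and the strand setting of the counting is not given in the sources used here. Ccdc85b was at 19.5 CPM in D4, 14.8 and 19.7 CPM in D1, 15.6 and 11.2 CPM in D5, and 8.88 to 36.1 CPM over all libraries. Its highest levels were in tVk12653. Whether reads of Ccdc85b have a part in the Fosl1 level of D4 was not tested. Of 8 other Fos and Jun family genes tested, some of them immediate early genes listed below as well, 4 fell and 0 rose in VQ against WT (median -1.76), among them Fosb (-3.45, edgeR adjusted p = 0.0115), Fos (-3.29, edgeR adjusted p = 0.0200) and Junb (-2.61, edgeR adjusted p = 0.00413). Against V 0 of the 8 passed, with a median of -0.62. Of all genes, 15.1% were called lower in VQ against WT and 12.4% against V.

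Ier3, an immediate early gene linked to survival under stress, was low in every library, with 0 to 26 counts. WT libraries had 2.11, 4.79 and 2.84 CPM and V libraries 0.986, 1.78 and 0.649 CPM. D1 had 2.96 and 2.82 CPM, D4 0.983 CPM, and D5 0.265 and 0 CPM, with 1.16 and 2.17 CPM in tVk12653. D5, which led for Etv1, Etv4 and Etv5, thus had the least Ier3. In the arm comparisons 0 of 6 were called, and the log2 fold change of VQ against WT was -1.18 ± 0.87 (edgeR adjusted p = 0.319). In the fit of 13 libraries with a mean per group it was called lower (-2.06, edgeR adjusted p = 0.0136). That fit takes recipients of 1 line as replicates and leaves out the spread between VQ lines. Shc4, an adaptor of the SHC family that links receptors to RAS, lay between 0 and 3.18 CPM everywhere and was too low for the fit of arms. Its D4 library (2.53 CPM) and both tVk12653 libraries (1.62 and 2.54 CPM) lay above the 3 WT libraries (at most 1.42 CPM), and V, D1 and D5 overlapped WT. Its exons overlap those of Eid1 on the other strand, so some of its 84 counts could belong to Eid1. Eid1 had 55.3 CPM in D4, 57.6 and 34.4 CPM in tVk12653, and 15.8, 37.6 and 22.5 CPM in WT. Over all libraries Eid1 had 14.8 to 57.6 CPM. Whether Eid1 reads have a part in the Shc4 levels was not tested.

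Of the 7 genes tested across the arms (Epha4 and Shc4 were too low), 3 rose and 0 fell in VQ against WT, where edgeR called 32.4% of all 11933 genes, 17.3% higher and 15.1% lower. In VQ against V, 5 rose and 0 fell, where 28.0% of all genes were called, 15.6% higher and 12.4% lower. In VQ against tVk12653, 2 rose and 0 fell, where 10.2% were called, 5.97% higher and 4.19% lower. The median log2 fold changes of the 7 were 3.19, 4.42 and 3.72, and those of all genes 0.08, 0.08 and 0.18. A gene that is high in 1 arm passes the filter because of it, so these counts describe the genes and are not a test of the set. Etv4, Etv5 and Phlda1 passed against WT and against V in every alternative in which they were tested. In 2 of the 8 genes tested over all 13 libraries (Etv4 and Etv5) every VQ library lay above every other library, which held for 5.55% of all 12835 genes.

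**Figure D3:**
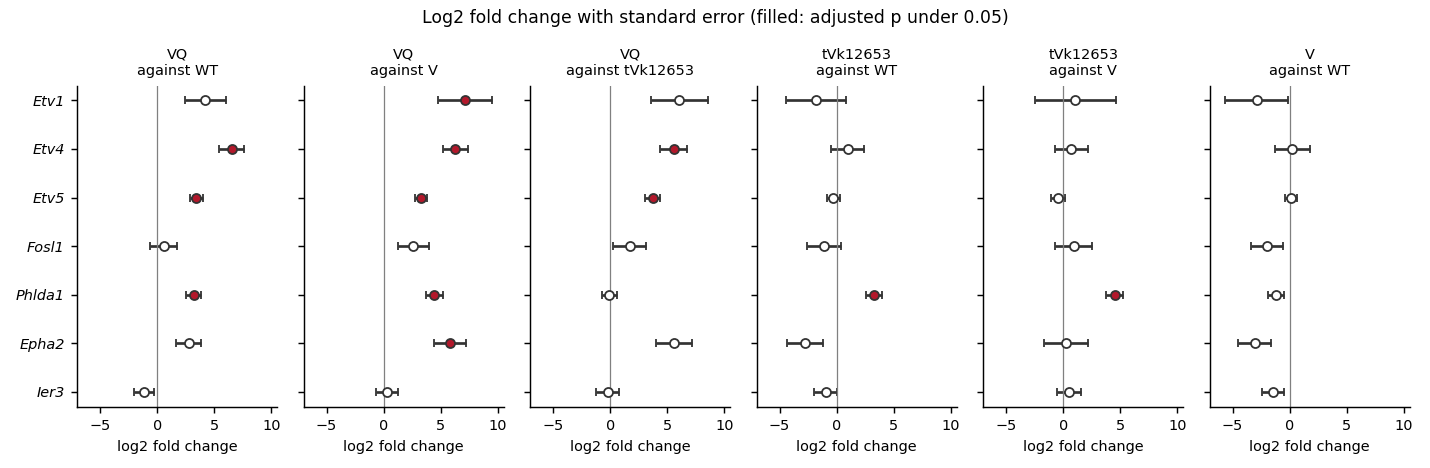
Log2 fold change (points) with standard error (bars) of the 7 genes tested, in 6 comparisons of arms from 1 edgeR fit. Filled points have an adjusted p under 0.05. Etv4 and Etv5 are filled in all 3 comparisons of VQ and in none of the others, and Phlda1 is filled in the 4 comparisons of a tumour arm with WT or V. The values of Etv1 and Etv4 rest on 1 to 3 counts in V or tVk12653 and depend on the prior count of the fit.

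In V against WT, 0 of the 7 genes were called, and edgeR called 0% of all genes (628 of 11933 had an unadjusted p under 0.05, and DESeq2 called 10 higher and 32 lower, none of them members). Etv5 differed by 0.14 ± 0.53 and Etv4 by 0.24 ± 1.53 on the log2 scale, and no gene of the 7 had an unadjusted p under 0.05 in that fit. No difference of V from WT in these genes passed the threshold. Epha2 had the smallest p (-3.07 ± 1.43, edgeR adjusted p = 0.972, unadjusted 0.0583). V and WT libraries with the same number deviated together, and when these 6 libraries were fitted alone, blocked by number, 0 members were called, with Etv5 at 0.14 ± 0.30 (edgeR adjusted p = 0.877), Phlda1 at -1.09 ± 0.44 (edgeR adjusted p = 0.227, unadjusted 0.0337) and 5 of the 7 too low to enter that fit. In the blocked fit of 13 libraries Epha2 differed between V and WT by more of its standard errors (-3.01 ± 0.71, edgeR adjusted p = 0.0696, unadjusted 0.000926) but missed the threshold. In tVk12653 against WT, 1 gene (Phlda1) rose and 0 fell, where 28.2% of all genes were called, 12.6% higher and 15.7% lower. With a replicate block Epha2 was called lower there (-3.43, edgeR adjusted p = 0.00151). In tVk12653 against V the counts were the same, where 23.2% of all genes were called, 10.3% higher and 12.9% lower. In tVk12653, Etv5 differed from WT by -0.30 ± 0.60 (edgeR adjusted p = 0.746).

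D1 and D5 share a genotype by their labels but differed in most of these genes. Etv5 was lower in D1 (log2 fold change -2.07 ± 0.27, edgeR adjusted p = 3.17e-05), as was Etv4 (-1.87 ± 0.47, edgeR adjusted p = 0.00511) and Epha2 (-2.49 ± 0.74, edgeR adjusted p = 0.0197). Etv1, at 0 in D1, was at least 97.7-fold lower than in D5 at a floor of 3 counts per library (edgeR adjusted p = 2.05e-06). Ier3 was higher in D1, with 37 counts against 1 (ratio 22.0, exact 95% interval 3.71 to 893, edgeR adjusted p = 0.00737). Phlda1 was lower in both D1 libraries than in both D5 libraries but missed the threshold (-1.61 ± 0.59, edgeR adjusted p = 0.0557). In all, 1 of the 8 genes tested was higher and 4 lower, where 41.7% of all 12835 genes were called in either direction. Each line has 2 recipients, so this compares these 2 lines only. Etv1 and Etv5 stayed called with any 1 of the 4 libraries left out. Epha2 was lost without any 1 of them (edgeR adjusted p of 0.0731 to 0.0995), Etv4 without D1 replicate 2 (0.0736) or D5 replicate 2 (0.0602), and Ier3 without D5 replicate 2 (0.0698). The 2 D1 recipients also differed from each other in Etv4, Etv5 and Phlda1, with replicate 1 higher in each. That library also had the higher neutrophil marker sum of the line (1278 against 387 CPM), whose part in this was not tested.

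**Figure D4:**
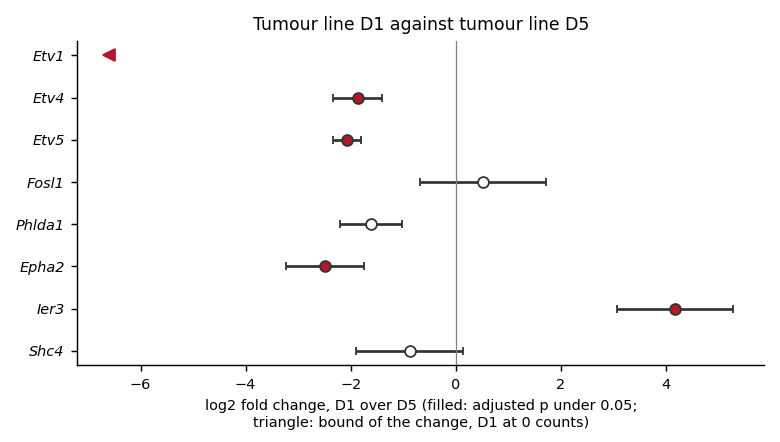
Log2 fold change of D1 over D5 (points) with standard error (bars) for the 8 genes tested in the edgeR fit of all 13 libraries. Filled points have an adjusted p under 0.05, and the triangle for Etv1 marks the bound of -6.61, since D1 had 0 counts. Etv1, Etv4, Etv5 and Epha2 lie left of 0 (lower in D1) and Ier3 right of it.

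The other genes of the pathway were taken from lists, whose counts stand against the 17.3% of all genes called higher and 15.1% called lower in VQ against WT. Of 10 feedback inhibitors tested, 3 rose and 0 fell in that comparison (median log2 fold change 1.90). Spry4, a Sprouty protein, went from at most 1.47 CPM in WT to 70.1 to 96.9 CPM in D1, 34.7 in D4 and 194 to 228 in D5, and was at most 0.362 CPM in tVk12653. Spred2, which blocks RAF activation, went from 12.8 to 17.3 CPM in WT to 32.9 to 89.97 CPM in VQ. Dusp9, an ERK phosphatase, rose too but was highest in D1 (29.7 and 74.0 CPM) and stood at 19.2 and 53.9 CPM in tVk12653. Against tVk12653, 3 of the 10 rose and 0 fell (median 1.63), where 5.97% of all genes were called higher and 4.19% lower. Spred1 was among those that rose, but only D4 (70.1 CPM) and D5 lay above WT (5.97 to 15.1 CPM). D1 lay below WT, and tVk12653 was at most 0.362 CPM. Between the lines, 6 of 11 feedback inhibitors were lower in D1 than in D5 and 2 higher (median -1.33), where 41.7% of all genes were called in either direction. Dusp4 was at 0 in both D1 libraries, and Spred1 was at 0.326 and 1.08 CPM there against 158 and 170 CPM in D5. Dusp6, the ERK phosphatase most used as a readout, was at 148 and 246 CPM in D5, 28.8 and 50.3 CPM in D1 and 19.4 CPM in D4, against 17.1 to 42.0 CPM in WT.

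Of 14 immediate early genes tested, 0 rose and 8 fell in VQ against WT (median -2.20), Egr3 (-7.74), Egr2 (-5.64) and Nr4a1 (-4.47) among them. Against V 1 of 14 fell and 0 rose, with a median of -0.22, where 12.4% of all genes were called lower and 15.6% higher. V against WT had a median of -2.14 with 0 called. WT libraries held 958 to 3421 CPM of Fos, V libraries 294 to 444, VQ libraries 49.3 to 812 and tVk12653 libraries 227 to 2346. Of 11 other ERK-induced genes tested, 4 rose and 2 fell in VQ against WT (median 0.93). Myc (4.67), which all arms but WT carry as a transgene, and Cdkn1a (3.15), a cell cycle inhibitor, led those that rose, and Rgs2 (-5.77), a regulator of G protein signalling, led those that fell. Ccnd1, which encodes cyclin D1, had 37.1 and 52.7 CPM in D5, 15.9 in D4 and 0.217 and 0.269 in D1, and was lower in D1 than in D5 (-7.41, edgeR adjusted p = 0.000270).

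Of the cascade itself, 24 components were tested, and 2 rose and 6 fell in VQ against WT (median -0.09), a share near the 32.4% called among all genes. Hras (1.53 ± 0.27) and Nras (1.27 ± 0.40) rose, and Rras2, a RAS-related GTPase, fell from 19.0 to 33.5 CPM to at most 0.538 CPM. Of 16 other ETS factors tested, 3 rose and 2 fell (median -0.12), again near that share. Elf3, an epithelial ETS factor, rose from at most 1.06 CPM to 6.89 to 17.0 CPM, and Ets2, itself an ERK target, rose from 27.9 to 55.3 CPM to 49.6 to 135 CPM and was at most 0.724 CPM in tVk12653. Among 8 regulators of the PEA3 group, 0 rose and 1 fell in VQ against WT (median -0.30). Cic, the repressor of this group, ranged over 328 to 379 CPM in WT, with D1 at 217 and 221, D4 at 351, D5 at 121 and 128 and tVk12653 at 401 and 523, and was not called in VQ against WT, V or tVk12653. It was higher in D1 than in D5 (0.81 on the log2 scale, edgeR adjusted p = 0.000358), the reverse of Etv1, Etv4 and Etv5. Phlda3, a relative of Phlda1 known as a p53 target, rose in VQ against WT from at most 0.369 CPM to 6.60 to 17.2 CPM (edgeR adjusted p = 0.00222).

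The genes most like each member were found by the root-mean-square difference of the 6 group means of log2 CPM, each gene centred on its own mean, among 5041 genes that ranged over at least 2 log2 units. For Etv1 these were Zfp365 (0.29 log2 units), Epdr1 (0.56) and Ccnd1 (0.61). Zfp365 stood at a mean of 0 CPM in D1, 6.04 in D4 and 57.7 in D5, close to Etv1 itself. For Etv4 they were Rnase2b (0.55), Asb16 (0.65) and Cyp27a1 (0.84), and for Etv5 Ifi204 (0.49), Ripk3 (0.54) and the mitotic activator Cdc20 (0.54). For Phlda1 they were Pgam2 (0.45), a muscle-type phosphoglycerate mutase, Zfyve9 (0.47) and Ptprs (0.53), all high in tVk12653 too. Epha2 had no gene closer than Cyp27a1 (0.76). For Fosl1 the nearest gene was Mir8109 (0.28), for Ier3 Ikbke (0.28) and for Shc4 Dusp16 (0.30). With 6 groups many genes have similar patterns by construction of the search, so the list is a description.

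**Figure D5:**
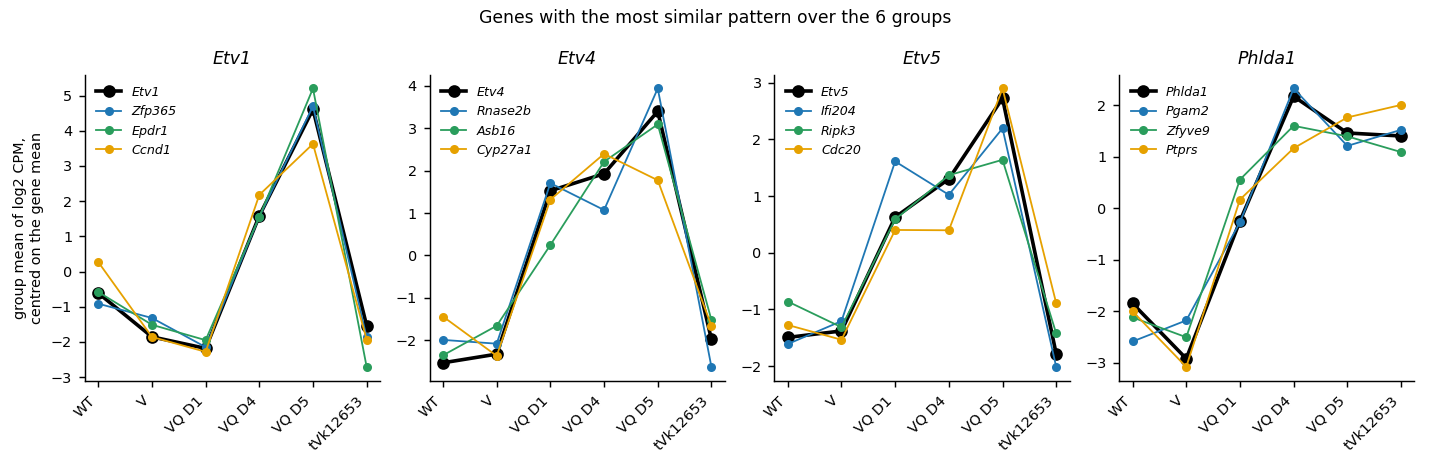
Group means of log2 CPM, centred on the mean of each gene, over the 6 groups for Etv1, Etv4, Etv5 and Phlda1 (black) and the 3 genes nearest to each (colours). Etv1 and its neighbours are lowest in D1 or tVk12653 and highest in D5, and Phlda1 and its neighbours are high in tVk12653 as well as in D4 and D5.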

How the data were processed

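The authors deposited whole-number read counts for 22997 gene symbols in 13 libraries, not normalized. Per the labels, RNA came from RNeasy Micro columns and went into the SMARTer Stranded Total RNA Pico kit. STAR 2.6.1d and GRCm38.p6 are named in the submitters' processing notes. How reads were assigned to genes, with which annotation and strand setting, is not given in the sources used here.

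Genes passed filterByExpr at a minimum count of 10 and a minimum total of 15. After TMM scaling, the robust quasi-likelihood test of edgeR 4.0.16 (R 4.3.3) gave p-values, which were adjusted by Benjamini-Hochberg across the whole table of genes tested and called under 0.05. The standard error is the log2 fold change divided by the square root of the F statistic. Arms were fitted on 11 units, with the counts of recipients of 1 VQ line summed, and D1 and D5 on all 13 libraries with a mean per group. The tVk12653 libraries were not summed and entered the fit of arms as separate units, although they came from recipients of 1 line. The p-values of comparisons with tVk12653 thus take these recipients as replicates and apply to that line only. The labels number WT and V libraries without saying that each came from its own mouse, so p-values measure the spread between these libraries, which may be technical. CPM values use the factors of the fit of 13 libraries. The tests were checked on simulated counts.

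The members and lists were chosen with earlier results of these data known. Named genes were all 9 members, Nras, Myc, Sdc1 and Ptprc, up to 4 called genes per list by size of change, and the 3 genes nearest to each member in pattern. Jchain, Dusp6 and the overlapping genes Ccdc85b and Eid1 were added after their values were seen. Libraries of V and WT with the same replicate number had correlated deviations from their group means (r across genes of 0.125 to 0.190, against -0.144 to -0.0380 for different numbers), which is where the pairing comes from. Deviations within a group sum to 0, so positive same-number values push the others down, and the 2 ranges are not separate evidence. For no other pair of groups was every same-number value above 0.1. Alternatives were relative log expression factors, no filter, a minimum count of 30, DESeq2 1.42.0, fits restricted to the compared groups, fits of the 13 libraries by arm or by group, a replicate block, leaving the 20 most abundant genes out, and omission of each library or line in turn. Removal of WT replicate 2 together with D1 replicate 1, which had the most neutrophil marker RNA of their groups, was added after seeing the data.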

Additional observations from a re-analysis of the deposited data

Results flagged for a closer look

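The effect of a tumour line against WT differed between lines in several of these genes, by the direct edgeR contrast of the lines. D1 was lower than D5 in Etv1 (log2 bound -6.61), Etv4 (-1.87), Etv5 (-2.07) and Epha2 (-2.49), and higher in Ier3 (4.17). VQ was above the tVk12653 line in Etv4 (5.55) and Etv5 (3.72). The calls of Etv4, Epha2 and Ier3 between the lines and both calls against tVk12653 did not hold with every library left out in turn, as given above.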

How the results depend on the processing

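Of the fold changes recomputed with all libraries, or with more than 1 left out, 279 kept direction and side of the threshold, 9 lost the call and 13 gained one. With 1 library or line left out, 209 were the same, 18 lost the call, 5 gained one and 1 reversed: Etv1 in tVk12653 against V, 1.06 and never called, ranged from -2.61 without tVk12653 replicate 2 to 3.68 without V replicate 1. In VQ against WT, 1 gene (Ier3) was called lower in the fit of 13 libraries with a mean per group, and 1 with a replicate block added. Both of these fits take recipients of 1 line as replicates. In tVk12653 against WT, 1 gene (Epha2) was called lower with the replicate block and 0 higher once WT replicate 2 and D1 replicate 1 were omitted together (Phlda1). In VQ against tVk12653, 0 were called higher in a fit of these arms alone, where 7 genes of 11747 were called higher at all. In D1 against D5, 0 were called higher at a minimum count of 30, because Ier3 was then not tested. With the replicate block V against WT had 0 members called higher and 0 lower in both blocked fits, and over all genes 43 higher and 48 lower in the fit of 13 libraries and 138 and 341 in the fit of V and WT alone. Leaving out 1 library or line, the members called higher ranged from 3 to 5 in VQ against WT, from 3 to 5 against V, from 0 to 4 against tVk12653, and from 0 to 1 in tVk12653 against WT. In D1 against D5 they ranged from 0 to 1 higher and 2 to 4 lower. Levels moved by at most a factor of 1.03 under relative log expression factors. Depth limits Epha4, Shc4, Fosl1 and Ier3 most, whose totals over all libraries were 10, 84, 144 and 94 counts.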
